A study of Mus musculus with 19 samples.

Results

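Skin with early basal cell carcinoma (BCC) from 4 mice was compared with healthy skin from 5 mice across 18521 genes. These are 9 of the 16 mice and 10 of the 19 libraries of the series. The mice were taken by their group labels: BCC mice 3, 4, 5 and 8 and healthy mice 10, 13, 14, 15 and 16, where mouse 16 had 2 libraries whose counts were summed. No measured value entered that choice. Every mouse was female and had the genotype Ptch1+/- K14-CreER2 p53fl/fl, the healthy mice included. One Ptch1 allele is missing throughout the body of such a mouse, and tamoxifen lets Cre recombinase remove the floxed p53 gene, Trp53, in cells with an active keratin 14 promoter. That promoter limits the deletion to keratin 14 cells, so dermis, muscle, fat and immune cells in the same piece of skin keep Trp53. The BCC mice had received 3 tamoxifen injections of 300 µg and an x-ray dose of 4 Gy, were 278 to 320 days old, 130 to 144 days after induction, and otherwise untreated. The healthy mice had not been induced and were 128 to 137 days old, and the libraries of mouse 16 carry the ages 128 and 135 days. Age, tamoxifen, x-rays, loss of Trp53 and tumour growth therefore change together and cannot be told apart. RNA came from 1 cm2 pieces of skin on harvest day 4, and the libraries were directional and selected with oligo dT. A piece of skin is a mixture, and in bulk RNA fewer cells of a type and less RNA per cell cannot be told apart.

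Basal cell carcinoma is the most common skin cancer and arises when Hedgehog signalling stays switched on in keratinocytes of the epidermis or hair follicle. Patched 1, the product of Ptch1, holds the membrane protein Smoothened inactive. Without it the GLI transcription factors enter the nucleus and switch on targets that include Gli1, Ptch1 and Hhip. The follicle bud of the embryo uses the same pathway, and the tumours share many of its transcription factors. Loss of p53 removes a brake on damaged cells, so that lesions appear earlier after x-rays.

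Libraries held between 27185921 and 33556611 expected counts. Of the 18521 genes, 15760 had enough counts to be tested. A gene could reach that count through the induced mice of the series alone, with few reads in healthy skin. With edgeR's quasi-likelihood test and an adjusted p (Benjamini-Hochberg) under 0.05, 445 genes (2.82%) changed, of which 420 rose (2.66% of those tested) and 25 fell (0.159%). "Rose" and "fell" are used below for these genes alone, and levels are CPM, the counts of a gene relative to the scaled size of the library. In 390 of the 420 rises every BCC mouse was above every healthy mouse, an arrangement found in 5.18% of all genes tested. In 20 of the 25 falls every BCC mouse was below, against 1.47% of all genes. The share of rises among the calls depended on the tool, since DESeq2 called 735 rises and 176 falls. The labelled tissue was checked by the basal keratin gene Krt14, at 2578 to 4019 CPM in healthy and 3027 to 5664 in BCC skin, among the most abundant transcripts in both.

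The rises were large and started low. Their median log2 fold change was 2.30 and that of the falls -1.47, while the median over all genes tested was -0.0036. By at least 4-fold rose 258 genes (61.4% of the rises) and by at least 16-fold 71. The median healthy level of a risen gene was 1.09 CPM, against 23.6 CPM for all genes and 17.8 for the fallen genes. In 202 rises (48.1%) the healthy mean was under 1 CPM, and in 77 (18.3%) it was at least 10 CPM. Many of the risen genes are therefore transcripts that were close to the detection limit in healthy skin.

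**Figure D1:**
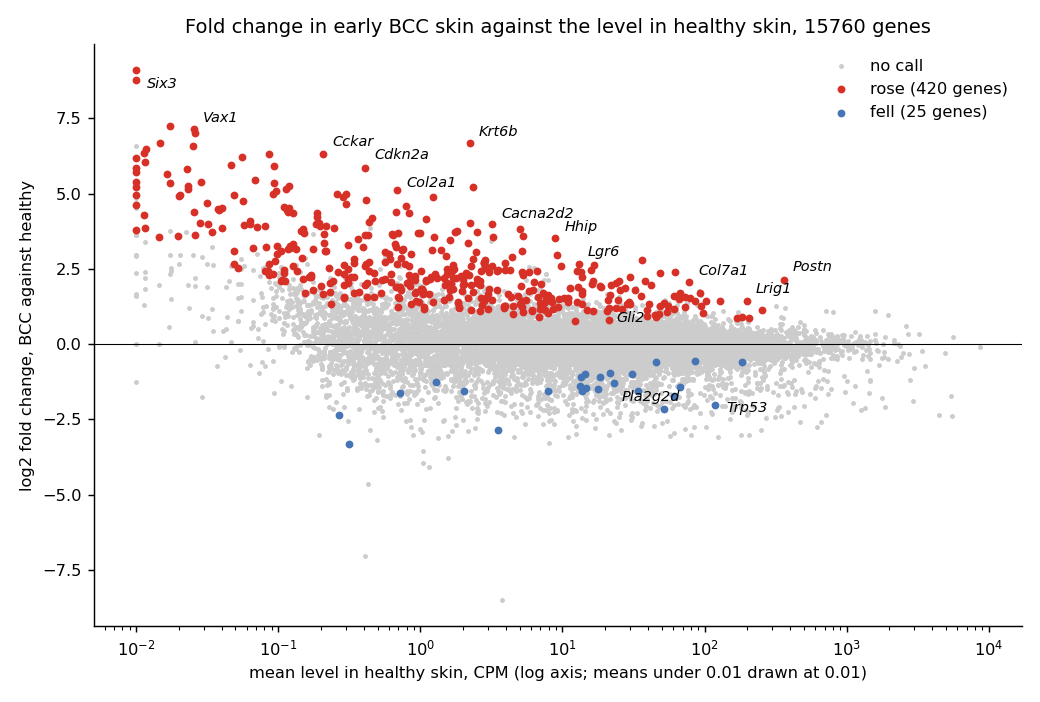
Each point is a gene tested, with its mean level in healthy skin (CPM, log axis) on the horizontal axis and its log2 fold change in BCC against healthy skin on the vertical axis. Risen genes are red and fallen genes blue, means under 0.01 CPM are drawn at 0.01, and most of the 420 rises lie at the left, at a low healthy level, with few of the 25 falls opposite.

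The engineered gene checks the labels. In CPM, with the healthy mice always in the order 10, 13, 14, 15 and 16 and the BCC mice in the order 3, 4, 5 and 8, Trp53 stood at 114, 143, 124, 94 and 123 in healthy and at 31.5, 27.6, 23.6 and 36.3 in BCC skin. The groups were far apart, and every BCC mouse retained some transcript in whole skin (log2 fold change -2.01, SE 0.26, adjusted p = 0.000423). Ptch1 was at 66.5, 66.7, 79.8, 28 and 80.6 in healthy and at 100.5, 122, 125 and 68.6 in BCC mice. Its groups overlapped, since BCC mouse 8 lay among the healthy mice, and the difference did not pass (log2 fold change 0.70, SE 0.39, adjusted p = 0.447).

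Of the Hedgehog genes Hhip and Gli2 passed over all genes. Hhip, which encodes a membrane protein that binds Hedgehog ligand, was at 6.92, 7.44, 12.5, 5.27 and 12.3 CPM in healthy and at 34.1, 137, 162 and 74.2 in BCC mice. BCC mice 4 and 5 were highest and mouse 3 lowest, still above every healthy mouse (log2 fold change 3.52, SE 0.49, adjusted p = 0.000775). Gli2, the activator that starts the GLI response, was at 51.6, 56.2, 49.2, 35.7 and 48.7 CPM in healthy and at 141, 111, 89.9 and 125 in BCC mice, with mouse 3 highest (log2 fold change 1.27, SE 0.29, adjusted p = 0.0209). Its call lapsed in the absence of healthy mouse 14 (1.28) or 15 (1.18) and without BCC mouse 4 (1.30) or 8 (1.25). Gli1, the most used readout of the pathway, was at 94.6, 103, 118, 39.8 and 118 CPM in healthy and at 302, 307, 314 and 258 in BCC mice, with no overlap but an adjusted p of 0.052. Fitted on the BCC and healthy mice alone, or with DESeq2, RLE scaling, limma voom, no low-count filter or the growing-hair covariate, it did pass. Healthy mouse 15 was the lowest of its group for each of these genes. Of 21 Hedgehog genes tested 2 rose, or 9.52% against 2.66% of all genes, the median log2 fold change was 0.45, and 8 had no overlap. Another 5 had log2 fold changes below 0. The count of rises was 1 when healthy mouse 14 or 15 or BCC mouse 4 or 8 was left out, 5 with the growing-hair covariate, 4 with DESeq2 and 3 with limma voom.

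**Figure D2:**
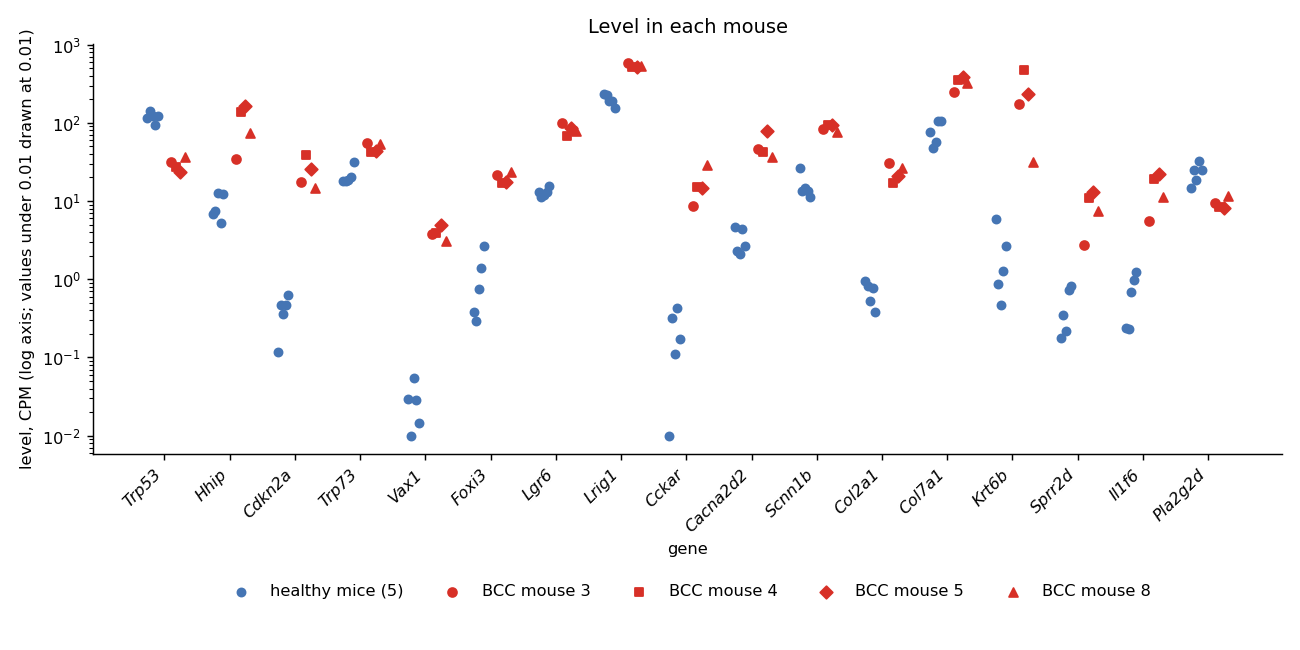
Levels of 17 genes in each mouse (CPM, log axis, values under 0.01 drawn at 0.01), with a blue point for each of the 5 healthy mice and a red symbol for each BCC mouse. Trp53 and Pla2g2d are lower in all 4 BCC mice than in all 5 healthy mice, and the other 15 genes are higher in all 4.

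Of the genes that stand next to p53 in textbooks, the largest change was in Cdkn2a, which encodes the cell cycle inhibitors p16INK4a and p19ARF. It stood at 0.118, 0.467, 0.359, 0.463 and 0.636 CPM in healthy and at 17.7, 38.4, 25.3 and 14.7 in BCC mice. The lowest BCC mouse was far above the highest healthy mouse (log2 fold change 5.84, SE 0.62, adjusted p = 0.000136). Trp73, which encodes the related factor p73, was at 17.8, 18.2, 18.5, 20.6 and 31.6 CPM in healthy and 55.4, 42.1, 43.4 and 53.6 in BCC mice (log2 fold change 1.19, SE 0.26, adjusted p = 0.0163). Its groups did not overlap, but its call lapsed in the absence of healthy mouse 13 (1.13) or 14 (1.14). Of 10 genes of the p53 family and the Cdkn2 group 2 rose and Trp53 fell.

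No p53 target and no cell cycle gene changed. By edgeR's test none of 29 textbook p53 targets rose or fell, 2 were lower at an unadjusted p under 0.05, and DESeq2 and limma voom called none, with a median log2 fold change of -0.07 (without BCC mouse 3, 1 fell). Cdkn1a, the target that encodes p21, was at 352, 302, 223, 232 and 209.8 CPM in healthy and 272, 92.7, 105 and 169 in BCC mice, with overlapping groups (log2 fold change -0.72, SE 0.33, adjusted p = 0.332). Of 28 cell cycle genes none passed in edgeR, DESeq2 or limma voom, 0 had an unadjusted p under 0.05, and their median was -0.07. Their mean log2 CPM ranged from 3.88 to 5.44 among healthy mice and from 4.06 to 5.43 among BCC mice, so the spread within a group exceeded the distance between groups. Hmga2, a chromatin protein of embryonic tissue, was at 0.443, 0.233, 0.359, 0.463 and 0.491 CPM in healthy and 0.811, 7.94, 3.98 and 2.4 in BCC mice, with mouse 4 highest (log2 fold change 3.23, SE 0.58, adjusted p = 0.0040, and 2.57 without mouse 4).

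Transcription factors of the embryo, most of them patterning genes of the head, were among the largest fold changes. Vax1, a homeobox factor of the ventral forebrain and optic stalk, had the smallest p of all genes. It was at 0.0296, 0, 0.0552, 0.0289 and 0.0145 CPM in healthy and at 3.74, 3.94, 4.97 and 3.08 in BCC mice, nearly equal among the 4 (log2 fold change 7.14, SE 0.54, adjusted p = 6.93e-06). Six3, a factor of the anterior forebrain and eye, was at 0 in every healthy mouse and at 1.01, 0.323, 1.09 and 3.13 CPM in BCC mice. With the floor of 3 counts over the healthy group it was at least 98.9-fold higher, and at least 55.8-fold without BCC mouse 8, the highest. Barhl2, a factor of retina and diencephalon, was at 0.0296, 0.0292, 0, 0 and 0.0145 CPM in healthy and 0.377, 5.08, 0.995 and 0.817 in BCC mice. The ratio of its scaled counts was 125 (95% counting interval 42.3 to 611), and 50.3 without BCC mouse 4. Of 20 forebrain and eye genes in the file 13 had too few counts to be tested, and these 3 passed the count filter through the BCC mice, so no share of the list is read.

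Other homeobox and LIM domain genes of neurons and limbs also rose. Isl2, a LIM homeobox factor of motor neurons, was at 0.0887, 0.175, 0.11, 0.0868 and 0.0289 CPM in healthy and 1.07, 0.999, 1.09 and 0.545 in BCC mice (log2 fold change 3.26, SE 0.50, adjusted p = 0.0012). Mouse 8 was lowest, and the other 3 agreed closely. Lmo3, a LIM-only cofactor of the nervous system, was at 0.148, 0.0292, 0.0552, 0.0579 and 0.173 CPM in healthy and 2.11, 4.0, 6.75 and 3.68 in BCC mice, highest in mouse 5 (log2 fold change 5.36, SE 0.60, adjusted p = 0.00016). Lmx1b, which patterns dorsal limb and midbrain, was at 3.02, 3.56, 3.45, 1.27 and 2.93 CPM in healthy and 11.5, 26.9, 5.85 and 22 in BCC mice with no overlap (log2 fold change 2.54, SE 0.60, adjusted p = 0.0283), but its call lapsed in the absence of any single mouse other than BCC mouse 3 or 5. Altogether 7 of 79 homeobox genes outside the HOX clusters rose (8.86%), and of 30 HOX genes none changed in edgeR's test. Of these 1 was higher and 1 lower at an unadjusted p under 0.05, DESeq2 called 1 fall and limma voom 1 rise, and 1 fell without healthy mouse 10 or BCC mouse 3. The medians of both families, 0.06 and -0.14, were close to that of all genes. Isl2, like Vax1, passed the count filter through induced mice, so the share of risen homeobox genes is not a result about that family.

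Among forkhead factors Foxi3, a gene of the hair placode and of ectodermal organs, rose most. It was at 0.384, 0.292, 0.745, 1.39 and 2.65 CPM in healthy and at 21.2, 17, 17.6 and 23.5 in BCC mice, where the 4 values lay close together (log2 fold change 4.16, SE 0.55, adjusted p = 0.000464). Healthy mouse 16 was the highest of its group, and without it the log2 fold change was 4.81. Foxd2, a factor of mesoderm and neural crest, was at 1.09, 1.52, 1.55, 1.53 and 3.25 CPM in healthy and 4.89, 13.3, 5.57 and 9.45 in BCC mice, highest in BCC mouse 4 (log2 fold change 2.20, SE 0.42, adjusted p = 0.0071). Foxf1, a Hedgehog target of gut and lung mesenchyme, was at 0.0591, 0.146, 0.0828, 0.0579 and 0.0867 CPM in healthy and 0.232, 0.529, 0.56 and 0.436 in BCC mice (log2 fold change 2.30, SE 0.46, adjusted p = 0.00855). Foxl1, its partner in gut mesenchyme, was at 0.917, 0.437, 0.11, 1.19 and 0.159 CPM in healthy and 4.2, 2.79, 3.11 and 8.47 in BCC mice (log2 fold change 3.06, SE 0.70, adjusted p = 0.0234), and its call lapsed in the absence of healthy mouse 13 (2.98), 14 (2.79) or 16 (2.80) or BCC mouse 8 (2.60). These 4 were the risen members among 29 forkhead genes tested, of 44 in the file, with a median of 0.04. Foxf1 passed the count filter through induced mice, so no share of the family is read.

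Several factors with a clear level in healthy skin doubled or more. Lhx2, a LIM homeobox factor of the hair placode and of follicle stem cells, was at 80.4, 75.8, 84.3, 66 and 87.7 CPM in healthy and 200.3, 311, 152 and 246 in BCC mice (log2 fold change 1.53, SE 0.31, adjusted p = 0.00985). With Foxi3 it was the risen pair among 20 placode and follicle bud genes (10%). Bcl11b, a zinc finger factor of T cells, neurons and keratinocytes, was at 30.1, 21.5, 30.3, 28.2 and 37.4 CPM in healthy and 51.4, 93.5, 70.6 and 96.2 in BCC mice (log2 fold change 1.40, SE 0.24, adjusted p = 0.00288). Tshz2, a zinc finger homeobox repressor, was at 17.6, 14.3, 15, 26.6 and 34 CPM in healthy and 56.2, 68.2, 65.9 and 77.6 in BCC mice (log2 fold change 1.64, SE 0.28, adjusted p = 0.00288). In all of them BCC mouse 3 or 5 was the lowest of its group and still above every healthy mouse.

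Some stem cell genes of the follicle rose. Lgr6, an R-spondin receptor of the isthmus and of cells that feed the epidermis, was at 13.2, 11.3, 12, 13.1 and 15.5 CPM in healthy and 99.7, 68.3, 85.3 and 79.5 in BCC mice, highest in mouse 3 (log2 fold change 2.68, SE 0.31, adjusted p = 0.000194). Lrig1, a brake on EGF receptor signalling that marks the junction of follicle and gland, was at 234, 226, 191, 191 and 154 CPM in healthy and 588, 523, 525 and 531 in BCC mice (log2 fold change 1.44, SE 0.30, adjusted p = 0.0128). Lgr5 and Krt15, genes of the bulge, did not pass. Lgr5 was at 74.7, 57.8, 83.8, 55.7 and 44.3 CPM in healthy and 70.4, 143, 226 and 129 in BCC mice, with BCC mouse 3 inside the healthy range (log2 fold change 1.17, SE 0.39, adjusted p = 0.151). Krt15 was at 2056, 1426, 1166, 2608 and 1603 CPM in healthy and 1281, 970.5, 860.4 and 2066 in BCC mice, with overlapping groups (log2 fold change -0.45, SE 0.34, adjusted p = 0.593). With Lhx2, Lgr6 and Lrig1, 3 of 18 follicle stem cell genes rose (16.7%, median 0.61). The count was 5 with the growing-hair covariate or with DESeq2, and 4 with limma voom.

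In the WNT family, Wnt7b, a ligand of epidermis and follicle, was at 27.1, 29.5, 26.5, 56 and 69.9 CPM in healthy and 213, 159.7, 132 and 148 in BCC mice, again highest in mouse 3 (log2 fold change 1.97, SE 0.35, adjusted p = 0.00396). Wnt2b, a ligand of the eye margin and mesenchyme, was at 0.71, 0.758, 0.938, 1.07 and 1.19 CPM in healthy and 2.06, 2.53, 4.32 and 3.62 in BCC mice (log2 fold change 1.74, SE 0.37, adjusted p = 0.0139), and its call lapsed in the absence of healthy mouse 13 (1.68). The other 14 WNT ligands tested did not pass, and the family's median was -0.30.

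A second large group of rises carries neuronal names. Nrcam, an adhesion molecule of axons, was at 5.85, 7.0, 13.1, 8.42 and 11.6 CPM in healthy and 35.2, 85.4, 103 and 62.4 in BCC mice, lowest in mouse 3 (log2 fold change 2.96, SE 0.39, adjusted p = 0.000464). Ncam1, the neural cell adhesion molecule, was at 10.1, 13.4, 18.7, 16.5 and 23.3 CPM in healthy and 44.6, 90.3, 87.1 and 57.2 in BCC mice, in the same order of mice apart from a near tie of mice 4 and 5 (log2 fold change 2.09, SE 0.28, adjusted p = 0.000532). Nlgn2, the neuroligin of inhibitory synapses, was at 45, 55.5, 58.1, 52.6 and 63.3 CPM in healthy and 116, 142, 135 and 141 in BCC mice, with a narrow spread in both groups (log2 fold change 1.28, SE 0.24, adjusted p = 0.00527). Nrxn3, a neurexin, was at 0.148, 0.0875, 0.166, 0.145 and 0.116 CPM in healthy and 0.406, 1.29, 2.21 and 0.872 in BCC mice (log2 fold change 3.15, SE 0.47, adjusted p = 0.00114). The list of neurexins, neuroligins and contactins was put together after its values had been seen. Of 23 genes in the file 15 were tested, and 5 rose (median 0.27). Nrxn3 passed the count filter through induced mice, so no share of the list is read.

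Proteins of vesicle release were included. Syngr3, a synaptic vesicle protein, was at 0.148, 0.146, 0.248, 0.347 and 0.332 CPM in healthy and 0.985, 1.09, 1.18 and 1.04 in BCC mice, with the 4 BCC values within a narrow range (log2 fold change 2.10, SE 0.36, adjusted p = 0.00262). Syt14, of the synaptotagmins that act in membrane fusion, was at 0.0296, 0.321, 0.221, 0.0579 and 0.434 CPM in healthy and 0.927, 2.76, 2.3 and 1.69 in BCC mice (log2 fold change 3.11, SE 0.60, adjusted p = 0.00717). Syt6, another synaptotagmin, was at 0.266, 0.175, 0.193, 0.0868 and 0.246 CPM in healthy and 0.637, 7.23, 2.39 and 2.53 in BCC mice, with mouse 4 highest (log2 fold change 4.01, SE 0.67, adjusted p = 0.00236, and 3.23 without it). Every BCC mouse was above every healthy mouse for these 3 genes. Kif5c, the heavy chain of a neuronal kinesin motor, was at 2.51, 2.1, 2.48, 5.56 and 4.97 CPM in healthy and 12.4, 22.2, 30.5 and 13.6 in BCC mice, highest in mouse 5 (log2 fold change 2.48, SE 0.42, adjusted p = 0.00262). The lists of vesicle proteins, of glutamate and muscarinic receptors, of protocadherins and of sodium and calcium channels were also put together after their values had been seen. Of 47 synaptotagmins and synaptic vesicle proteins in the file 40 were tested, Syt6 through induced mice, so no share of the list is read. Of the 40 tested 10 rose (median 0.51). That count was 4 without healthy mouse 10 or 14 or BCC mouse 4, 5 without healthy mouse 13, and 6 without healthy mouse 15 or BCC mouse 5.

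Some receptors for transmitters and gut hormones rose from near the detection limit. Cckar, the cholecystokinin A receptor, was at 0, 0.321, 0.11, 0.434 and 0.173 CPM in healthy and 8.52, 15.2, 14.7 and 28.6 in BCC mice, highest in mouse 8 (log2 fold change 6.32, SE 0.80, adjusted p = 0.000371). Htr1b, a serotonin receptor, was at 0.266, 0.321, 0.497, 0.579 and 0.52 CPM in healthy and 1.91, 4.38, 14.6 and 8.28 in BCC mice, highest in mouse 5 (log2 fold change 4.04, SE 0.60, adjusted p = 0.00106). Grm7, a metabotropic glutamate receptor, was at 0.266, 0.262, 0.718, 0.0289 and 0.231 CPM in healthy and 3.3, 12.6, 6.13 and 8.28 in BCC mice (log2 fold change 4.64, SE 0.78, adjusted p = 0.00262, and 5.23 without healthy mouse 14). For all 3 receptors BCC mouse 3 was the lowest of its group and still above every healthy mouse. Chrm1, the muscarinic receptor M1, was at 0.503, 0.233, 0.166, 0.347 and 0.304 CPM in healthy and 1.22, 1.79, 1.77 and 2.32 in BCC mice (log2 fold change 2.51, SE 0.42, adjusted p = 0.00262). Chrm3, the M3 receptor of gland cells, was at 0.148, 0.233, 0.221, 0.376 and 0.564 CPM in healthy and 1.25, 1.03, 2.02 and 1.44 in BCC mice (log2 fold change 2.18, SE 0.46, adjusted p = 0.0137), with no call without healthy mouse 14 (2.08). Of 31 glutamate and muscarinic receptors in the file 19 were tested, and 5 rose. Grm7 passed the count filter through induced mice, so no share of the list is read.

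Markers of nerve, of Merkel cells and of secretory granules were compared as lists. Of 12 markers of Schwann cells and nerve only Ncam1 rose, and the list's median was -0.41 (without BCC mouse 3, 2 fell). The mean log2 CPM of that list was 4.26 to 4.46 in healthy and 3.64 to 4.35 in BCC mice. Of 10 Merkel cell markers tested only Chga rose, and that call lapsed in the absence of healthy mouse 10, 13 or 14. Of the 10, 4 had log2 fold changes above 0 and 6 below 0, with 2 higher and 1 lower at an unadjusted p under 0.05, 2 rises in DESeq2 and 1 in limma voom. With the growing-hair covariate 1 rose and 2 fell. Krt20, Krt18, Syp, Isl1 and Sox2 were among those below 0, and Atoh1, Pou4f3 and Chgb had too few counts to be tested. The Merkel list's mean log2 CPM was 0.82 to 1.14 in healthy and 0.85 to 0.97 in BCC mice. A list of neuroendocrine and secretory granule genes was put together after its values had been seen. Of 17 such genes in the file 10 had enough counts to be tested, so no share of the list is read. Chga, Scg5, Eno2, Pam and Cpe rose, 5 of the 10 (median 0.54). The mean log2 CPM of the list was 1.58 to 2.06 in healthy and 2.35 to 2.54 in BCC mice. That count was 0 without healthy mouse 13, 1 when BCC mouse 4 or 5 or healthy mouse 10 or 14 was left out, 2 without healthy mouse 16, 3 without BCC mouse 8, and 1 with the growing-hair covariate.

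Neighbouring genes of the protocadherin beta cluster rose. Clustered protocadherins are adhesion molecules that neurons combine to tell their own branches from others. Their beta members lie side by side on chromosome 18 as genes of a single exon. Pcdhb9 was at 1.51, 1.72, 1.82, 2.6 and 2.33 CPM in healthy and 3.94, 16.7, 8.83 and 6.4 in BCC mice, with mouse 4 highest and mouse 3 lowest (log2 fold change 2.16, SE 0.36, adjusted p = 0.00234). Pcdhb4 was at 0.325, 0.321, 0.193, 0.376 and 0.491 CPM in healthy and 0.898, 1.03, 1.49 and 1.12 in BCC mice (log2 fold change 1.71, SE 0.34, adjusted p = 0.00985). Pcdhac2, the last exon choice of the alpha cluster next door, was at 0, 0.204, 0.0828, 0 and 0.173 CPM in healthy and 2.17, 2.15, 5.85 and 2.37 in BCC mice, with mouse 5 highest and the other 3 alike (log2 fold change 4.97, SE 0.90, adjusted p = 0.00452). All 20 beta genes tested had log2 fold changes above 0, 14 had no overlap and 10 rose (50%, median 1.43). Of 24 alpha and gamma genes tested Pcdhac2 alone rose (median 0.14).

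The count of 10 depended on single mice. It was 2 without healthy mouse 14 or BCC mouse 4, 3 without healthy mouse 10 or 13 or BCC mouse 5, 6 without healthy mouse 16 or BCC mouse 8, and 15 without BCC mouse 3. With the growing-hair level of each mouse as a covariate it was 2. In the mean log2 CPM of the beta cluster, relative to the healthy mean, BCC mice 3, 4, 5 and 8 were at 0.53, 1.83, 1.64 and 1.07, and healthy mice between -0.37 and 0.37. Among the beta genes that rose, at most 2.24% of each transcript's stretches of 100 bases also occur in another gene, so sharing of reads between neighbours was limited.

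Channels formed another group. The epithelial sodium channel takes up sodium across the surface of kidney, airway and skin cells and is built from alpha, beta and gamma subunits. Scnn1b, the beta subunit, was at 26.3, 13.6, 14.5, 13.6 and 11.4 CPM in healthy and 83.8, 93.5, 94 and 76.3 in BCC mice (log2 fold change 2.45, SE 0.29, adjusted p = 0.000237). Scnn1g, the gamma subunit next to it on the chromosome, was at 9.17, 5.83, 5.85, 6.74 and 5.31 CPM in healthy and 32.2, 31.5, 46.6 and 32.9 in BCC mice, highest in BCC mouse 5 (log2 fold change 2.44, SE 0.31, adjusted p = 0.000371). Healthy mouse 10 was the highest of its group for both. Scnn1a, the alpha subunit, was at 59.6, 35.9, 29.6, 46.3 and 44.7 CPM in healthy and 43.3, 16.5, 20.9 and 45.4 in BCC mice, with overlapping groups and no pass (log2 fold change -0.45, SE 0.41, adjusted p = 0.662). Calls of the related acid-sensing channels Asic1 (1.34, SE 0.35) and Asic2 (1.53, SE 0.40) brought the count to 4 of 5 tested. That count was 2 if healthy mouse 10, 14 or 15 or BCC mouse 4 or 8 was left out. It was also 2 with the growing-hair covariate. The file holds 8 genes of this list, and Asic2 passed the count filter through induced mice, so no share of them is read.

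Some voltage-gated calcium channel genes rose too. Cacna2d2, an auxiliary alpha2delta subunit, was at 4.64, 2.27, 2.1, 4.34 and 2.63 CPM in healthy and 46.4, 42.2, 78.7 and 37 in BCC mice, highest in mouse 5 (log2 fold change 4.00, SE 0.42, adjusted p = 0.000136). Cacna1d, the pore of an L-type channel, was at 2.04, 2.92, 2.73, 3.33 and 4.18 CPM in healthy and 7.99, 11.8, 20.4 and 24 in BCC mice (log2 fold change 2.40, SE 0.36, adjusted p = 0.00106), and Cacna1h, the pore of a T-type channel, at 1.01, 1.37, 1.46, 2.11 and 2.47 CPM in healthy and 4.66, 7.41, 5.07 and 13.9 in BCC mice (log2 fold change 2.20, SE 0.37, adjusted p = 0.00266). These were the 3 rises among 22 calcium channel genes (13.6%), a list with a median of 0.09, 11 members above 0 and 11 below. At an unadjusted p under 0.05, 5 were higher and 4 lower. DESeq2 called 4 rises and 2 falls, and with the growing-hair covariate 3 rose and 5 fell. Cacna2d4, another auxiliary subunit, fell (-1.61, SE 0.41), a call that held in a fit without BCC mouse 8 and ended without any other mouse. Calb1, a calcium buffer of neurons and kidney, was at 0, 0, 0.0828, 0 and 0.0434 CPM in healthy and 0.753, 5.11, 4.45 and 1.58 in BCC mice (log2 fold change 6.59, SE 0.87, adjusted p = 0.000464, and 7.30 without healthy mouse 14). Kcng1, a silent potassium channel subunit, was at 0.71, 1.17, 1.24, 2.58 and 2.34 CPM in healthy and 24.3, 15.3, 18.1 and 13.1 in BCC mice, highest in mouse 3 (log2 fold change 3.45, SE 0.42, adjusted p = 0.000255). Clcn2, a chloride channel, was at 10.1, 9.71, 10.7, 10.9 and 10.3 CPM in healthy and 25.5, 28, 35.2 and 31.6 in BCC mice, with the narrowest healthy spread of these genes (log2 fold change 1.54, SE 0.23, adjusted p = 0.00114).

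Some genes outside these groups had among the smallest p values of the whole comparison. Ccdc187, which encodes a coiled-coil protein, was at 0.0887, 0.0583, 0.0276, 0.0289 and 0.0723 CPM in healthy and 4.17, 2.91, 7.21 and 3.57 in BCC mice (log2 fold change 6.23, SE 0.51, adjusted p = 1.40e-05). Ak5, a brain adenylate kinase, was at 1.12, 1.72, 1.9, 2.14 and 1.92 CPM in healthy and 24.6, 20.9, 30.8 and 17.1 in BCC mice (log2 fold change 3.72, SE 0.33, adjusted p = 2.37e-05). Abo, the glycosyltransferase of the blood group antigens, was at 0.0296, 0.0875, 0.0828, 0.145 and 0.0867 CPM in healthy and 6.37, 5.64, 13.6 and 3.13 in BCC mice, highest in mouse 5 and lowest in mouse 8 (log2 fold change 6.33, SE 0.69, adjusted p = 0.000142).

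The junction between epidermis and dermis changed at several of its parts. Col7a1 encodes the anchoring fibril collagen that ties the basement membrane to the dermis, and was at 76.4, 47.5, 56.4, 106 and 105 CPM in healthy and 248, 356, 381 and 321 in BCC mice (log2 fold change 2.06, SE 0.28, adjusted p = 0.00060). Lamb3 and Lama3 encode chains of a laminin that anchors keratinocytes to that membrane. Lamb3 was at 86.4, 61.6, 57.4, 123 and 98.8 CPM in healthy and 228, 236, 172 and 278 in BCC mice (log2 fold change 1.42, SE 0.26, adjusted p = 0.00453). Lama3 was at 61.6, 37.6, 52.2, 58.6 and 48.9 CPM in healthy and 78.6, 155, 177 and 125 in BCC mice, lowest in BCC mouse 3 (log2 fold change 1.37, SE 0.29, adjusted p = 0.0128), and its call lapsed in the absence of BCC mouse 4 (1.29). In both laminin genes every BCC mouse was above every healthy mouse.

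Collagens of cartilage had the largest rises among the collagens. Col2a1, the main fibril collagen of cartilage, was at 0.946, 0.816, 0.524, 0.781 and 0.376 CPM in healthy and 30.8, 17, 20.8 and 26.2 in BCC mice, highest in mouse 3 (log2 fold change 5.11, SE 0.54, adjusted p = 0.000136). Col9a2 and Col9a3 encode chains of the collagen that coats those fibrils. Col9a2 was at 0.296, 0.379, 0.386, 0.781 and 0.246 CPM in healthy and 15.5, 12.8, 11.5 and 5.99 in BCC mice, also highest in mouse 3 (log2 fold change 4.78, SE 0.47, adjusted p = 9.36e-05), and Col9a3 at 5.03, 6.36, 4.17, 8.02 and 2.92 CPM in healthy and 26.2, 29, 28.8 and 19.9 in BCC mice (log2 fold change 2.29, SE 0.33, adjusted p = 0.000923). In none of these 3 did the groups overlap. Col10a1, the collagen of hypertrophic cartilage, was at 0, 0.0583, 0.0276, 0.0579 and 0 CPM in healthy and 0.319, 1.18, 2.05 and 1.25 in BCC mice (log2 fold change 5.38, SE 0.90, adjusted p = 0.00236). Col27a1, a fibril collagen of growing cartilage, was at 5.79, 6.56, 10.2, 8.31 and 17.8 CPM in healthy and 31.7, 68.3, 48 and 85 in BCC mice (log2 fold change 2.58, SE 0.40, adjusted p = 0.00138), and Col26a1, a collagen of testis and ovary, at 0.443, 0.641, 0.662, 0.318 and 1.3 CPM in healthy and 3.82, 9.58, 6.87 and 5.15 in BCC mice (log2 fold change 3.21, SE 0.47, adjusted p = 0.00104). Of 44 collagens in the file 43 were tested and 10 rose (median 0.88). Of 25 genes of cartilage matrix in the file, a list put together after its values had been seen, 19 were tested and 7 rose (median 1.48). Col10a1 passed the count filter through induced mice, so no share of the collagens or of the cartilage list is read.

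Growth factors that act on the stroma were higher as well. Tgfb2 and Tgfb3 encode transforming growth factors beta. Tgfb2 was at 15.5, 10.7, 13.8, 33.9 and 19.4 CPM in healthy and 43.9, 69.3, 102 and 62.6 in BCC mice, and healthy mouse 15 came closest to BCC mouse 3 (log2 fold change 1.90, SE 0.33, adjusted p = 0.00368). Tgfb3 was at 22.6, 26.7, 28.3, 33.3 and 50.6 CPM in healthy and 100.2, 138, 80.3 and 131 in BCC mice (log2 fold change 1.80, SE 0.25, adjusted p = 0.000616). Pdgfa, a growth factor for fibroblasts, was at 24.2, 19.3, 24.6, 26.8 and 32.7 CPM in healthy and 51.3, 141, 84.2 and 80.7 in BCC mice, highest in mouse 4 (log2 fold change 1.81, SE 0.27, adjusted p = 0.00106). Smoc2, a calcium-binding matrix protein, was at 105, 135, 114, 151 and 136 CPM in healthy and 291, 370.3, 370.0 and 369.7 in BCC mice, nearly equal in BCC mice 4, 5 and 8 and lower in mouse 3 (log2 fold change 1.45, SE 0.22, adjusted p = 0.00107). Cxcr4, the receptor of the chemokine CXCL12, was at 13.5, 16.6, 14.6, 11.2 and 12.7 CPM in healthy and 42.2, 49, 64.9 and 29.7 in BCC mice (log2 fold change 1.76, SE 0.26, adjusted p = 0.00101). None of these 5 genes had overlapping groups. Postn, which encodes the matrix protein periostin, was at 261, 249, 476, 474 and 348 CPM in healthy and 496, 2492, 2506 and 867 in BCC mice (log2 fold change 2.14, SE 0.47, adjusted p = 0.0175). Its call lapsed in the absence of healthy mouse 13 (2.03) or BCC mouse 4 (1.84) or 5 (1.86) and with the growing-hair covariate (1.38).

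The 10 risen genes with the highest levels in BCC skin were Postn, Cd44, Lrig1, Smoc2, Mmp14, Cpe, Krt16, Col7a1, Pygb and Col14a1, and of these Lrig1, Smoc2 and Col7a1 kept the call under every alternative. Cd44, the hyaluronan receptor of moving cells, was at 264, 243, 287, 224 and 244 CPM in healthy and 390.3, 524, 859 and 433 in BCC mice, highest in mouse 5 (log2 fold change 1.13, SE 0.26, adjusted p = 0.0252). Its call lapsed in the absence of healthy mouse 13 (1.11), 15 (1.09) or 16 (1.12) or BCC mouse 4 (1.15) or 5 (0.85). With the growing-hair covariate Cd44 (0.96), Mmp14 (0.75) and Cpe (0.82) had no call. Mmp14, a membrane-bound collagenase, was at 185, 214, 173, 251 and 207 CPM in healthy and 281, 575, 267 and 376 in BCC mice, highest in mouse 4 (log2 fold change 0.86, SE 0.22, adjusted p = 0.0403), with calls only in the fits without healthy mouse 15 or BCC mouse 3 or 5 among those that left out a mouse (0.58 without BCC mouse 4). Cpe, an enzyme that trims peptide hormones, was at 253, 150.3, 129.9, 218 and 163 CPM in healthy and 308, 378, 374 and 308 in BCC mice (log2 fold change 0.90, SE 0.21, adjusted p = 0.0276), and its call lapsed in the absence of healthy mouse 13 (0.84), 14 (0.81) or 16 (0.86) or BCC mouse 4 (0.85) or 5 (0.88).

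Some genes of the cornified envelope and of wounded epidermis rose. Small proline-rich proteins, encoded by the Sprr genes, are cross-linked into the envelope of dead surface cells. The matrix metalloproteinases Mmp10 (stromelysin 2) and Mmp13 (collagenase 3) cut matrix and are made at the edge of wounds. Of 13 Sprr genes tested with a RefSeq promoter 4 rose, Sprr2b, Sprr2d, Sprr2e and Sprr2i, all on chromosome 3. The 210 bases before their start sites, and 100 bases before those of Mmp10 and Mmp13 on chromosome 9, are shown because these 6 genes rose together, and because all 6 share the same pair of short motifs there. Sequences are from RefSeq, build GRCm38.p6, plus strand, with AP-1 motifs (TGACTCA or its reverse complement TGAGTCA, searched on both strands) and the TATA box letters TATAAA (searched on the gene's strand) in capitals. The regions are chr3:92316495-92316704 for Sprr2b, chr3:92338930-92339139 for Sprr2d, chr3:92351933-92352142 for Sprr2e, chr3:92407781-92407990 for Sprr2i, chr9:7502242-7502341 for Mmp10 and chr9:7272414-7272513 for Mmp13.
Sprr2b: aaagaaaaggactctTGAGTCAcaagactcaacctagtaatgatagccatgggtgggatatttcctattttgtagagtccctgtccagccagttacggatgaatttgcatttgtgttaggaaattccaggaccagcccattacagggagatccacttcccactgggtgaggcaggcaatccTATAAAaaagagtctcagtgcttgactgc
Sprr2d: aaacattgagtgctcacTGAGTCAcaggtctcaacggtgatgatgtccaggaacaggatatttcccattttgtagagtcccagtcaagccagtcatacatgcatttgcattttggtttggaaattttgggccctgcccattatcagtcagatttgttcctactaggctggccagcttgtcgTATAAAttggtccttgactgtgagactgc
Sprr2e: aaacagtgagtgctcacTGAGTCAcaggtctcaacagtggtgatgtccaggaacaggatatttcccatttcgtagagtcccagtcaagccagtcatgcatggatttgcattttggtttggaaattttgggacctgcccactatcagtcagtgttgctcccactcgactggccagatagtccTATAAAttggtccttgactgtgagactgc
Sprr2i: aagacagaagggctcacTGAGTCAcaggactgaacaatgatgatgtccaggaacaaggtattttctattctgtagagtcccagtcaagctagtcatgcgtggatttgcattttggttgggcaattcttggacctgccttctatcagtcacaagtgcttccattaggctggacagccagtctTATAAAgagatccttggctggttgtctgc
Mmp10: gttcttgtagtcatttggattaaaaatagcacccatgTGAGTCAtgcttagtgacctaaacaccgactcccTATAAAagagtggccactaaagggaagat
Mmp13: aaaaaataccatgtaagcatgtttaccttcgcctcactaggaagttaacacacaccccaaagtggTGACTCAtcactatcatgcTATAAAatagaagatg

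The AP-1 motif begins 195 bases before the start site of Sprr2b and 193 bases before those of the other 3 Sprr2 genes, and TATAAA begins at 29 bases in all 4. In Mmp10 they begin at 63 and 29 bases, and in Mmp13 at 35 and 16 bases. Over windows from 250 bases before to 50 after the start site, the AP-1 letters occur in 650 of 12486 genes tested that have a RefSeq promoter (5.21%) and in 24 of 307 risen genes (7.82%). TATAAA occurs in 6.99% and 9.77%. Of 20 fallen genes with a promoter, 5 (25%) have the AP-1 letters and 3 (15%) TATAAA, so neither motif is particular to the rises. Among the Sprr genes the AP-1 letters are present in 4 of 4 that rose and in 4 of 9 that did not pass, so they are not limited to the risen ones. The GLI motif GACCACCCA, also searched on both strands, occurs in 30 of the 12486 promoters (0.24%) and in 0 of the 307. These are matches of letters and say nothing of binding.

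Levels of these genes differed widely among the BCC mice. Sprr2d was at 0.177, 0.35, 0.221, 0.724 and 0.81 CPM in healthy and 2.72, 10.8, 13.2 and 7.55 in BCC mice, lowest in mouse 3 (log2 fold change 4.19, SE 0.63, adjusted p = 0.00107). Sprr2e was at 0.0296, 0.117, 0.11, 0.0579 and 0.275 CPM in healthy and 1.19, 4.12, 4.29 and 1.72 in BCC mice (log2 fold change 4.39, SE 0.64, adjusted p = 0.000964, and 5.10 without healthy mouse 16). Sprr2i was at 0.0591, 0.0875, 0, 0 and 0.0434 CPM in healthy and 0.406, 0.999, 1.21 and 1.04 in BCC mice (log2 fold change 4.46, SE 0.75, adjusted p = 0.00244), and Sprr2b at 0.0296, 0.0875, 0.0828, 0.0289 and 0.0578 CPM in healthy and 0.29, 1.03, 1.21 and 1.2 in BCC mice (log2 fold change 3.94, SE 0.75, adjusted p = 0.00649). The 4 rises among 13 genes tested, of 14 in the file (median 2.34), became 7 without healthy mouse 16. Sprr2b, Sprr2e and Sprr2i passed the count filter through induced mice, so no share of the family is read. Mmp10 was at 0, 0, 0.0276, 0.0868 and 0.0145 CPM in healthy and 1.65, 5.08, 7.37 and 0.381 in BCC mice, with mouse 8 lowest (log2 fold change 7.03, SE 1.13, adjusted p = 0.00189, and 7.96 without healthy mouse 15). Mmp13 was at 0.148, 0.35, 0.138, 0.55 and 0.318 CPM in healthy and 2.75, 12.1, 20.3 and 3.6 in BCC mice, highest in mouse 5 (log2 fold change 4.99, SE 0.71, adjusted p = 0.000845, and 4.36 without it).

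Late cornified envelope genes lie near the Sprr genes and encode further envelope proteins, and those of the Lce3 group appear in wounds and psoriasis. Lce3e was at 0, 0, 0, 0.0579 and 0.0289 CPM in healthy and 1.71, 6.76, 4.57 and 0.354 in BCC mice (log2 fold change 7.24, SE 0.86, adjusted p = 0.000234), with log2 fold changes of 6.65 without BCC mouse 4 and 7.88 without healthy mouse 15. Lce3f was at 0.207, 0.117, 0.0552, 0.0289 and 0.0578 CPM in healthy and 2.58, 10.9, 7.49 and 1.17 in BCC mice, in the same order of BCC mice (log2 fold change 5.90, SE 0.64, adjusted p = 0.000142). These genes share 36.4% and 43% of their stretches of 100 bases with another gene, so that reads could have been divided between copies. Lce1g, of the group made in normal epidermis, was at 2.63, 1.2, 3.17, 2.75 and 4.19 CPM in healthy and 12.5, 17.2, 29.8 and 13.7 in BCC mice (log2 fold change 2.71, SE 0.40, adjusted p = 0.00105). Of 21 late cornified envelope genes 5 rose (median 1.21), and 3 without healthy mouse 13 or BCC mouse 4 or 5. Lce3e and Lce3f passed the count filter through induced mice, so no share of the family is read.

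A minority of the keratins rose. Krt6b, a keratin of wound-edge keratinocytes, was at 5.82, 0.875, 0.469, 1.27 and 2.66 CPM in healthy and 172, 479, 232 and 31.9 in BCC mice, with mouse 8 lowest (log2 fold change 6.68, SE 0.95, adjusted p = 0.000845). Without healthy mouse 10 its log2 fold change was 7.42, and without BCC mouse 4 it was 6.03. Krt16, its partner, was at 70.6, 54.3, 34.8, 109 and 41.7 CPM in healthy and 333, 487, 369.5 and 112 in BCC mice (log2 fold change 2.39, SE 0.52, adjusted p = 0.0162), and its call lapsed in the absence of healthy mouse 13 (2.34) or 14 (2.25) or BCC mouse 4 (2.13). Of their transcripts' stretches of 100 bases, 30.6% and 24.3% occur in another gene. Krt7, a keratin of simple and glandular epithelia, was at 3.13, 3.64, 2.4, 2.37 and 2.41 CPM in healthy and 18.5, 21.4, 20.9 and 12 in BCC mice (log2 fold change 2.70, SE 0.50, adjusted p = 0.00531), and Krt12, the keratin of the cornea, at 0, 0.0875, 0.11, 0.0579 and 0.0289 CPM in healthy and 0.695, 2.91, 1.06 and 1.58 in BCC mice (log2 fold change 4.74, SE 0.65, adjusted p = 0.000648). Of 51 keratins tested, of 54 in the file, 5 rose, or 3 without healthy mouse 13 or 14 or BCC mouse 4. The family's median was -0.98. Krt12 passed the count filter through induced mice, so no share of the family is read.

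Protease inhibitors and proteases of the surface followed. Cstdc5, a stefin that inhibits cathepsins, was at 2.1, 2.62, 3.23, 1.01 and 2.82 CPM in healthy and 60.9, 173, 107 and 14.5 in BCC mice (log2 fold change 5.23, SE 0.78, adjusted p = 0.00107), and Stfa3 at 0.71, 1.55, 2.46, 2.43 and 4.03 CPM in healthy and 22.5, 64.9, 52.5 and 7.6 in BCC mice (log2 fold change 4.03, SE 0.78, adjusted p = 0.00775), both lowest in mouse 8 and highest in mouse 4. Of 8 stefin A genes 3 rose (37.5%). Tmprss11b, a membrane serine protease of mucosal epithelia, was at 0.0296, 0.0292, 0, 0 and 0 CPM in healthy and 0.463, 1.97, 1.87 and 0.381 in BCC mice, lowest in mouse 8. The ratio of its scaled counts was 119 (95% counting interval 32.4 to 990). Prss33, a serine protease, was at 0.207, 0.117, 0.193, 0.0868 and 0.116 CPM in healthy and 1.19, 1.65, 3.76 and 1.2 in BCC mice, highest in mouse 5 (log2 fold change 3.74, SE 0.49, adjusted p = 0.000441). Of 51 trypsin-like proteases in the file, a list put together after its values had been seen, 25 were tested and 7 rose. Tmprss11b and Prss33 passed the count filter through induced mice, so no share of that list is read. Tgm5, a transglutaminase that cross-links the envelope, was at 22.9, 17.1, 18.8, 32.7 and 32 CPM in healthy and 63.7, 56.5, 96.3 and 58.2 in BCC mice (log2 fold change 1.47, SE 0.25, adjusted p = 0.00302).

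Of 28 wound keratinocyte genes 27 were tested and 9 rose (median 1.25): Il1f6, Mmp13, Krt6b, Sprr2d, Mmp10, Il1f8, Krt16, Cd44 and Slpi. Mmp10 passed the count filter through induced mice, so no share of the list is read. The mean log2 CPM of that list was 2.15 to 2.76 in healthy and 3.67 to 4.80 in BCC mice. Among the members that did not pass, Krt6a was at 1639, 1575, 960.0, 856 and 319 CPM in healthy and 2070.5, 1115, 582 and 446 in BCC mice. Its values overlapped almost fully, and the sign of its log2 fold change of -0.02 changed with the scaling and with single mice. Of 32 genes of terminal differentiation 1 rose, or 2 without BCC mouse 3.

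**Figure D3:**
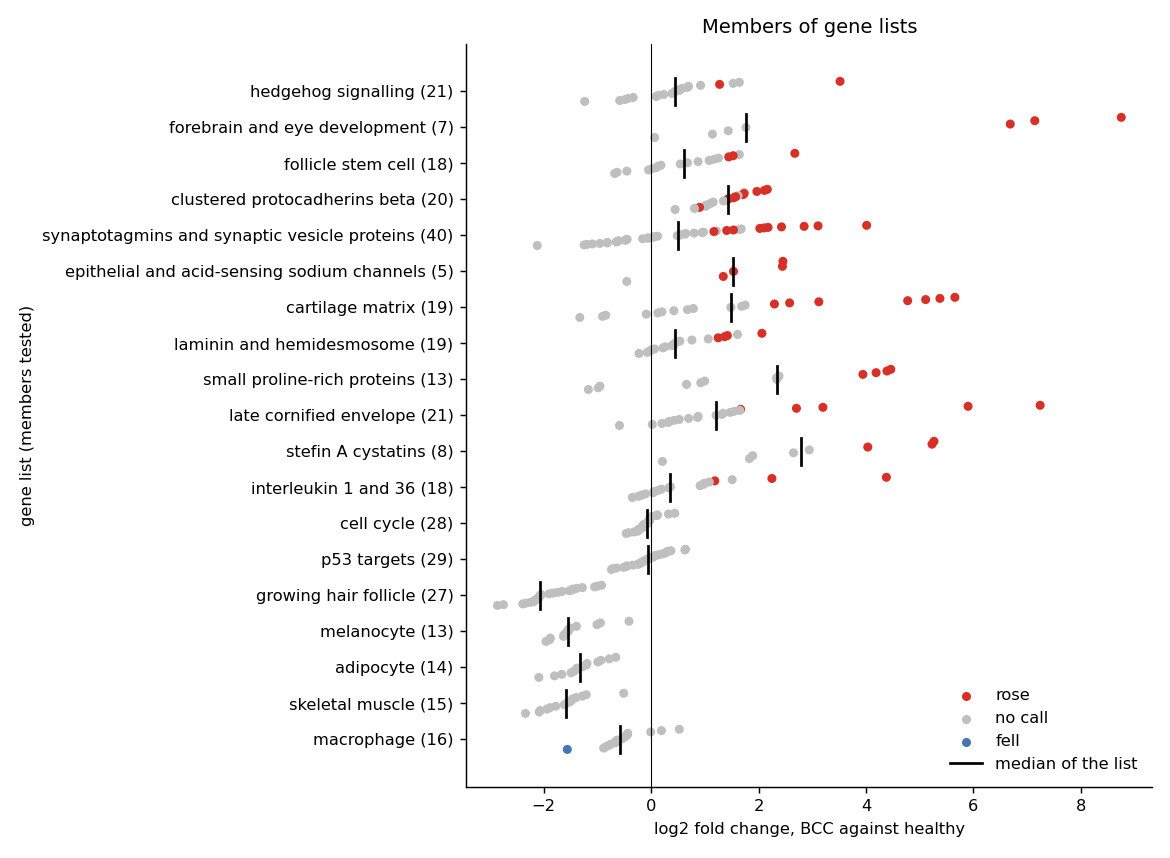
Log2 fold change (BCC against healthy) of every tested member of 19 gene lists, with a point for each gene, risen members in red, the fallen one in blue and a bar at the list's median. Protocadherin beta genes lie above 0 throughout, and the lists of growing hair, melanocytes, fat and muscle lie below 0 with no member called.

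A few genes of the interleukin 36 family rose. Il1f6, which encodes interleukin 36 alpha, an alarm signal of the epidermis, was at 0.237, 0.233, 0.69, 0.984 and 1.24 CPM in healthy and 5.59, 19, 22.3 and 11.2 in BCC mice, lowest in mouse 3 (log2 fold change 4.38, SE 0.55, adjusted p = 0.000371). Il1f8, which encodes interleukin 36 beta, was at 1.03, 0.933, 2.07, 3.3 and 2.31 CPM in healthy and 3.3, 11.6, 15.9 and 6.05 in BCC mice, where BCC mouse 3 equalled the highest healthy mouse to within rounding (log2 fold change 2.25, SE 0.47, adjusted p = 0.0128), and its call lapsed in the absence of BCC mouse 5 (1.88). Of 18 interleukin 1 and 36 genes 3 rose (16.7%), and 1 without BCC mouse 5. Beside Il1f6 and Il1f8 the third was Il1f5, which encodes the interleukin 36 receptor antagonist, so the rises were not of activating ligands alone. S100a9, a calprotectin subunit of neutrophils and inflamed keratinocytes, was at 7.13, 2.54, 1.79, 2.81 and 1.49 CPM in healthy and 8.63, 63, 48.4 and 14.2 in BCC mice, far apart in mice 4 and 5 but close to healthy mouse 10 in mouse 3 (log2 fold change 3.42, SE 1.08, adjusted p = 0.128).

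Among genes of leukocytes, Ccl1, a chemokine of activated T cells, was at 0.887, 0.583, 0.359, 0.724 and 0.549 CPM in healthy and 2.93, 3.35, 4.66 and 1.69 in BCC mice (log2 fold change 2.34, SE 0.47, adjusted p = 0.00912). Tnfrsf9, the co-stimulatory receptor 4-1BB, was at 1.09, 0.846, 0.552, 1.42 and 1.11 CPM in healthy and 2.61, 3.35, 4.91 and 3.54 in BCC mice (log2 fold change 1.84, SE 0.36, adjusted p = 0.0079). Cd5, a T cell surface protein, was at 3.37, 2.36, 2.48, 4.2 and 2.59 CPM in healthy and 8.17, 6.67, 6.03 and 5.83 in BCC mice (log2 fold change 1.15, SE 0.26, adjusted p = 0.0196), and its call lapsed in the absence of healthy mouse 13 (1.08), 14 (1.10) or 16 (1.10) or BCC mouse 4 (1.16). It was the sole rise among 16 T cell genes (6.25%, median 0.39). None of 12 neutrophil genes passed in edgeR's test (median 0.73), with 4 higher at an unadjusted p under 0.05, 2 rises in DESeq2 and 0 in limma voom. Of 15 dendritic and Langerhans cell genes also none passed, with 1 higher and 2 lower at an unadjusted p under 0.05, 1 rise in DESeq2 and 0 calls in limma voom, but 4 fell with the growing-hair covariate. Of 16 macrophage genes 1 fell, the folate receptor gene Folr2, and the count was 3 without healthy mouse 10, 0 without any other single mouse and 4 with the growing-hair covariate.

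Falls were few and smaller. Beside Trp53, only Pla2g2d kept its call under every alternative tried. It encodes a secreted phospholipase of dendritic cells and was at 14.6, 25.1, 18.8, 32.2 and 24.6 CPM in healthy and 9.5, 8.38, 8.18 and 11.6 in BCC mice, where mice 4 and 5 were lowest (log2 fold change -1.29, SE 0.26, adjusted p = 0.00848). Adap1, a binder of phosphoinositides, was at 8.93, 14.4, 12.1, 16.5 and 21 CPM in healthy and 8.08, 3.38, 4.42 and 5.18 in BCC mice, with BCC mouse 3 just below healthy mouse 10 (log2 fold change -1.47, SE 0.29, adjusted p = 0.00935). Efhd1, a mitochondrial calcium sensor, was at 16.8, 16.3, 11, 23.5 and 21.7 CPM in healthy and 5.3, 4.5, 7.28 and 8.45 in BCC mice (log2 fold change -1.48, SE 0.30, adjusted p = 0.00985), and Glb1l2, a galactosidase-like gene, at 48.9, 57.2, 56.9, 82.6 and 93 CPM in healthy and 18.2, 16.6, 32.7 and 34.4 in BCC mice (log2 fold change -1.41, SE 0.30, adjusted p = 0.0151). The calls of Efhd1 and Glb1l2 lapsed in the absence of BCC mouse 4 (-1.35 and -1.25). Mtarc1, a mitochondrial reductase, was at 0.71, 2.6, 2.7, 5.79 and 5.84 CPM in healthy and 0.695, 0.411, 0.591 and 0.245 in BCC mice, where healthy mouse 10 was barely above BCC mouse 3 (log2 fold change -2.86, SE 0.58, adjusted p = 0.0104), and its call also lapsed in the absence of BCC mouse 4 (-2.79). Leaving out single mice gave between 4 falls (without BCC mouse 4) and 176 (without BCC mouse 3), with 84 without healthy mouse 10, 8 without BCC mouse 5, 9 without healthy mouse 16, and 10 without healthy mouse 13, 14 or 15.

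The 4 BCC mice did not contribute alike. Of the 420 risen genes, 168 were highest in mouse 4 and 166 in mouse 5, but 53 in mouse 8 and 33 in mouse 3. Mouse 3 was the lowest of the 4 for 237 of them. The median log2 level of the rises over the healthy mean was 1.59, 2.47, 2.43 and 1.96 in mice 3, 4, 5 and 8. Genes in which mouse 3 was highest include Gli2, Lgr6, Wnt7b, Kcng1, Col2a1 and Col9a2. Without mouse 3, 622 genes rose, 411 of the 420 among them. Without BCC mouse 4 there were 261 rises, without healthy mouse 14 there were 268, and without healthy mouse 13 there were 275. In all 9 fits that left out a mouse 230 rises held.

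Levels of hair genes also differed among the mice, in both groups. The mean log2 CPM of 27 genes of the growing hair follicle was 9.16, 8.34, 8.25, 6.49 and 3.75 in healthy and 8.07, 2.09, 0.98 and 2.65 in BCC mice. Healthy mouse 16 thus lay closest to BCC mice 4, 5 and 8, and BCC mouse 3 lay among the healthy mice. No gene of that list passed in edgeR, DESeq2 or limma voom, or had an unadjusted p under 0.05, although its median log2 fold change was -2.06, nor did any of 54 keratin-associated protein genes of the hair shaft (median -2.27, with 1 lower at an unadjusted p under 0.05 and 0 calls by DESeq2 or limma voom). None of 13 melanocyte genes passed in the 3 tools or had an unadjusted p under 0.05 (median -1.54), but 11 fell in edgeR's test without BCC mouse 3. None of 14 adipocyte genes passed in edgeR's test (median -1.33), but 9 were lower at an unadjusted p under 0.05, DESeq2 called 3 falls and limma voom 1, and 3 fell without healthy mouse 10. None of 15 skeletal muscle genes passed (median -1.58), with 9 lower at an unadjusted p under 0.05, 1 fall in DESeq2 and 0 in limma voom. With the growing-hair level as a covariate, 413 genes rose, 320 of the 420 among them, and 579 fell, with 14 of the 14 adipocyte and 13 of the 15 muscle genes. The part of the hair cycle in the difference between groups was not tested beyond that fit.

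**Figure D4:**
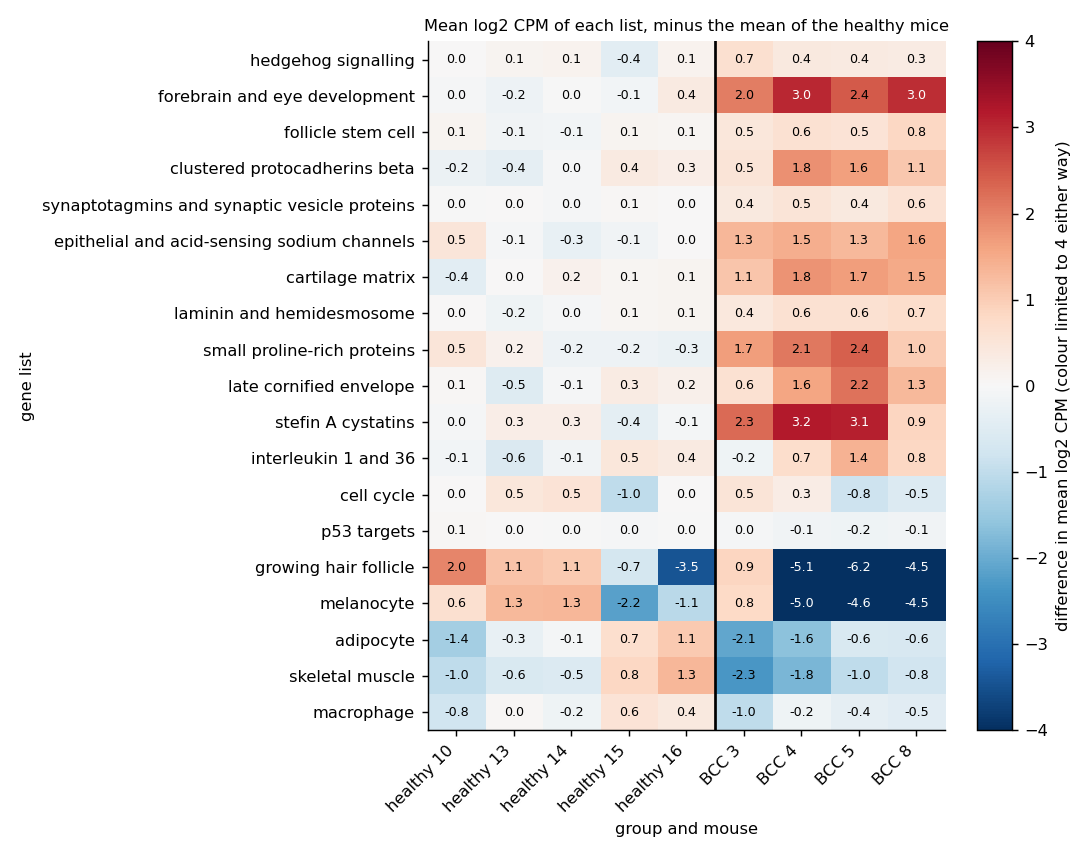
Mean log2 CPM of 19 gene lists in each mouse, as a difference from the mean of the 5 healthy mice, in colour and printed in each cell. Stefin genes are above the healthy mean in all 4 BCC mice, while growing hair and melanocyte genes are below it in BCC mice 4, 5 and 8 and above it in mouse 3. The forebrain, vesicle, sodium channel, cartilage, small proline-rich and late cornified envelope rows are not read. Members of those lists passed the count filter through induced mice.

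Risen genes were partly neighbours. All 420 could be placed in the gene order of GRCm38.p6, and 61 (14.5%) were next to at least 1 other risen gene among the genes tested, in 27 runs. The longest run was Pcdhb9 to Pcdhb13 with 5 genes, and 4 runs had 3: Pcdhac2, Pcdhb3 and Pcdhb4, then Sprr2b, Sprr2d and Sprr2e, then Prss33, Prss41 and Prss32, and Glrp1, Arl4c and Sh3bp4. Pairs included Scnn1g with Scnn1b, Lce3e with Lce3f, Cstdc6 with Cstdc5 and Il1f6 with Il1f5. How many would be neighbours in a random order was not computed, and several runs are families of related genes. By chromosome, the share of tested genes that rose was highest on 18 (23 of 420, 5.48%) and lowest on 13 (8 of 585, 1.37%), against 2.66% of all genes tested. The rises on chromosome 18 include the 10 protocadherin beta genes, whose count depended on single mice, and Pcdhac2.

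For a few genes the levels in the other induced mice of the strain, whose tumours were treated on the skin, are given side by side with no test, since the groups differ in age and in time after induction. Hhip was at 8.89 ± 3.32 CPM (mean ± SD) in the 5 healthy mice, 102 ± 58.4 in the 4 BCC mice, 17.4 ± 15 after ablative fractional laser (AFL, n = 3) and 3.88 ± 1.09 after the Smoothened inhibitor vismodegib (n = 4). Vax1 was at 0.0256 ± 0.0205, 3.93 ± 0.786, 0.938 ± 0.51 and 0.17 ± 0.0708 CPM in the same order, and Col2a1 at 0.689 ± 0.232, 23.7 ± 6.04, 4.61 ± 4.73 and 0.825 ± 0.412 CPM. Cckar was at 0.208 ± 0.172, 16.8 ± 8.48, 4.89 ± 5.5 and 0.276 ± 0.0931 CPM. In these 4 genes the mean was highest in untreated BCC. The envelope gene Sprr2d, in contrast, was at 0.456 ± 0.292, 8.58 ± 4.54, 21.9 ± 13.2 and 1178 ± 684 CPM, and Krt6b at 2.22 ± 2.18, 229 ± 187, 3644 ± 3289 and 12649 ± 10575 CPM, with the highest mean after vismodegib. Hhip, Vax1, Col2a1 and Cckar do not stand for all other rises. Means in untreated BCC and after AFL were 1.2 and 1.5 CPM for Col10a1, 0.439 and 0.48 for Foxf1, and 3.78 and 6.61 for Hmga2.

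**Figure D5:**
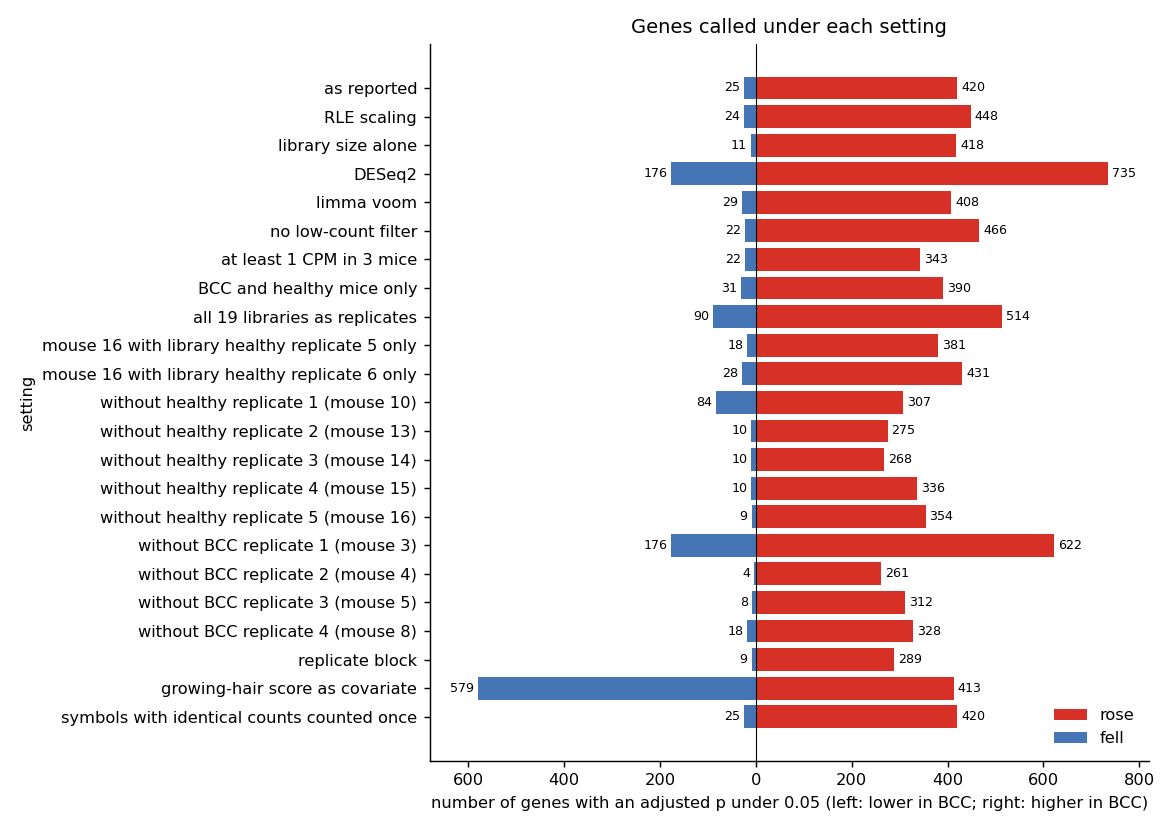
Number of genes that rose and fell in BCC against healthy skin under each processing alternative, as bars from 0. Rises (red, right) lie between 261 and 735, and falls (blue, left) between 4 and 579.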

How the data were processed

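RNA from mouse skin was sequenced after oligo dT selection and directional library preparation, per the labels' protocols. The expected counts per gene deposited by the authors came from Bowtie2 alignment and RSEM on GRCm39, per the submitters' processing notes. Versions, annotation, strand setting and filters were not given in the sources used here. Of the values 3.42% were not whole and were rounded, libraries of one mouse were summed, and 0 columns were left unused. All 16 mice entered one edgeR 4.0.16 fit (R 4.3.3) with filterByExpr (minimum count 10, minimum total 15), TMM scaling, group as the sole term and a robust quasi-likelihood test, with Benjamini-Hochberg adjustment over 15760 genes. The p-values measure the spread between mice within the groups of the whole series, the treated groups included. Intervals and floors cover counting error only, as PCR reads carry no molecular identifiers. Log2 CPM used a prior count of 2. At 3 or fewer counts over a group, ratios of scaled counts replace fitted folds, with a floor of 3.

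Alternatives were RLE scaling, library size alone, DESeq2 1.42.0, limma 3.58.1 voom, other filters, other sample sets, a replicate block, a growing-hair covariate and leaving out each mouse. The scripts were tested on simulated data. Members and gene lists were chosen with earlier results of these data known. Genes were named by rule: Trp53, Ptch1, Gli1, Gli2 and Hhip, the 10 largest rises and falls (at least 1 CPM, no overlap), the 10 most abundant rises, the 5 smallest p, and up to 4 called members of each list, or the member with the smallest p where none was called. Not every gene of the rule is reported, and other named genes were chosen after their values were seen.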

Additional observations from a re-analysis of the deposited data

Results flagged for a closer look

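In 216 groups of values tested (108 genes in healthy and in BCC mice), 14 single mice stood far from the rest of their group. Chance alone flags about 1 group in 20. In healthy mouse 15, Ptch1 (28.05 CPM, next lowest mouse 66.46) and Lmx1b (1.274 CPM) were lowest, and Col9a2 was highest (0.7815 CPM). In healthy mouse 16, Trp73 (31.62 CPM) and Foxd2 (3.253 CPM) were highest, and in healthy mouse 10, Scnn1b (26.34 CPM) and S100a9 (7.125 CPM). Among BCC mice, mouse 4 was highest for Barhl2 (5.085 CPM) and Asic1 (3.439 CPM), mouse 5 for Scnn1g (46.61 CPM) and Pcdhac2 (5.846 CPM), and mouse 3 for Lrig1 (588.3 CPM). Mouse 3 was lowest for Smoc2 (290.6 CPM) and mouse 8 for Isl2 (0.5449 CPM).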

How the results depend on the processing

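Of 99 named genes that were called, 74 kept the call under every alternative and 79 in all fits without a mouse. A gene that an alternative did not test counts as not kept, and the stricter count filter left some named genes untested. Over those fits the genes changed numbered 265 to 798 (285 without healthy mouse 13, 278 without 14), the rises 261 to 622 (275 and 268) and the falls 4 to 176 (84 without healthy mouse 10, 10 without 13, 14 or 15, and 8 without BCC mouse 5). DESeq2 changed 911 genes (735 up, 176 down) and the growing-hair covariate 992 (579 down). Falls numbered 11 with library size alone and 90 with all 19 libraries as replicates. Fitted on the BCC and healthy mice alone, 390 genes rose, 328 of the 420 among them, and 31 fell, 15 of the 25 among them. Krt6a reversed, from -0.02 to 0.0026 with RLE scaling or DESeq2, 0.027 with library size alone, 0.17 with 19 libraries, 0.74 with the growing-hair covariate and, leaving out a mouse, 0.16 (healthy 13), 0.19 (healthy 10), 0.20 (BCC 5) and 0.24 (BCC 8). The causes were not tested. The replicate numbers gave correlations of deviations of 0.407, -0.167, -0.209 and 0.433 between same-numbered mice, and 1 BCC mouse correlated best with its own number, so they share only a number. With the replicate block 298 genes changed (289 up, 9 down). At 27185921 to 33556611 counts per library, genes under about 1 CPM rest on few reads. The ages given for mouse 16 differ between its libraries, and with 1 of them alone 381 or 431 genes rose.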
